A study of Mus musculus with 6 samples.

Results

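The branched-chain amino acids leucine, isoleucine and valine are taken up, transaminated and oxidised by a short pathway, and 8 mouse genes of that pathway were examined, 8 of the 20687 gene symbols in the table. They were Bcat1 and Bcat2, which encode the cytosolic and the mitochondrial aminotransferase, Bckdha, Bckdhb and Dbt, which encode subunits of the branched-chain keto acid dehydrogenase (BCKDH), Bckdk, which encodes its inhibiting kinase, and Slc7a5 and Slc3a2, which encode the light and heavy chains of a leucine transporter. They were listed by name and chosen by role in the pathway together with their lung and cell line levels in these samples, which were already known. The comparison of lung with cell line is therefore given for them as a description, with no test.

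In the pathway, the transporter exchanges large neutral amino acids, leucine among them, for intracellular glutamine. The aminotransferases then move the amino group to 2-oxoglutarate, which yields glutamate and a branched-chain keto acid. BCKDH, a mitochondrial complex, decarboxylates the keto acid irreversibly, and phosphorylation by the kinase switches it off. Bcat2 is expressed in many tissues, whereas Bcat1 is known from brain, embryonic tissue and many tumours. Leucine that enters the cell also activates the growth kinase complex mTORC1.

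RNA was sequenced from 3 Lung_KP samples and 3 CellLine_KP samples of C57BL/6 origin. Lung_KP is whole lung, digested with collagenase, from mice given 100000 KP cells through the tail vein and killed at day 28, and the labels describe pools of 3 mice from independent experiments. CellLine_KP is the injected KP line itself, extracted in triplicate with no statement of separate cultures, so its spread may be technical. Libraries were made from total RNA with a stranded mRNA kit, a Nugen protocol is mentioned too, and the labels carry the same protocol for both groups. The labels give neither the genotype of the line nor the age of the mice, and no lung without tumour cells was among the samples. In whole tissue, fewer cells of a type and less RNA per cell cannot be told apart.

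Estimated counts summed to between 17786758 and 22862396 per sample. CPM, the unit below, are counts per TMM-adjusted library. On the unadjusted totals, 3 counts, the limit that a count of 0 allows, corresponded to 0.131 to 0.169 CPM. Such limits cover counting error only. All 8 alveolar type 2 markers were higher in lung by the edgeR test, and their summed level ran from 15300 to 21711 CPM in lung and from 84.3 to 92.4 CPM in the cell line, where Sftpa1, Sftpd and Slc34a2 were at 0. Nearly all of the cell line sum was Abca3, at 86.6, 79.7 and 81.6 CPM. T and NK cell markers (8 of 8 higher in lung) summed to 189 to 243 CPM in lung, and to 9.96 to 21.3 CPM in the cell line. B and plasma cell markers (7 of 7 higher in lung) summed to 193 to 391 CPM in lung and still to 55.7 to 105 CPM in the cell line. In the 10 marker lists examined, every gene was called higher in lung apart from Mrc1 of macrophages and Aqp5 of alveolar type 1 cells. The part of these other cell types in the values below was not tested. Pearson's r of log2 CPM across genes, which are not independent replicates, was lower for pairs with cell line replicate 1 (0.965, 0.964) than for the other cell line pair (0.996). For lung the pairs with replicate 2 gave 0.939 and 0.914 and the remaining pair gave 0.985. Lung replicate 2 deviated from the mean of lung replicates 1 and 3 by a median log2 value of 0.71 in the quartile of genes with the shortest transcripts (up to 1724 bases) and -0.96 in the quartile with the longest (4152 bases or more). Cell line replicate 1 and lung replicate 2 thus stood apart from their groups, and several results below are given with and without them.

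Bcat1 and Bckdhb each have a pair of annotated promoters whose transcripts the table counts separately, and these 4 windows are shown because the transcript values below refer to them. The sequences are from RefSeq on build GRCm38.p6, matched by symbol, and hold 250 bases before and 50 bases after an annotated gene start. The files themselves carry no coordinates. Capitals mark the 50 bases from the start onward.
Bcat1 upstream start, chr6:145076108-145076407, minus strand: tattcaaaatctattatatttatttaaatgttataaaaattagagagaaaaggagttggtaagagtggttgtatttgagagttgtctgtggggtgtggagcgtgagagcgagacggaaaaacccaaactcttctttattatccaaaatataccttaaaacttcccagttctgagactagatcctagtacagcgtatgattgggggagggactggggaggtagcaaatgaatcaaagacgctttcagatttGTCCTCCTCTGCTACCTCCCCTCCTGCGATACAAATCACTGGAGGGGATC
Bcat1 downstream start, chr6:145048763-145049062, minus strand: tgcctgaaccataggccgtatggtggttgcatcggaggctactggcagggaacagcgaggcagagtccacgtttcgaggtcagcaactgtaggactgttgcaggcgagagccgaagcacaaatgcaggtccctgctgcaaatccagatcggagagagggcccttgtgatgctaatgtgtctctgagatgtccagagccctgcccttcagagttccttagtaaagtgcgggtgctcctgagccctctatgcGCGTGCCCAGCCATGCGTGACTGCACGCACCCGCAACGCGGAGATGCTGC
Bckdhb upstream start, chr9:83924887-83925186, plus strand: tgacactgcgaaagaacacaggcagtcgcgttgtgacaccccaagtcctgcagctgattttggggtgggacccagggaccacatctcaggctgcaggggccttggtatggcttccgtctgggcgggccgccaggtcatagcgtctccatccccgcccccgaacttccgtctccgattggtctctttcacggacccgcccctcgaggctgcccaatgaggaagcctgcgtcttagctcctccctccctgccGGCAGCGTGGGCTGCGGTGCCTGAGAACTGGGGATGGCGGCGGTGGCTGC
Bckdhb downstream start, chr9:83948531-83948830, plus strand: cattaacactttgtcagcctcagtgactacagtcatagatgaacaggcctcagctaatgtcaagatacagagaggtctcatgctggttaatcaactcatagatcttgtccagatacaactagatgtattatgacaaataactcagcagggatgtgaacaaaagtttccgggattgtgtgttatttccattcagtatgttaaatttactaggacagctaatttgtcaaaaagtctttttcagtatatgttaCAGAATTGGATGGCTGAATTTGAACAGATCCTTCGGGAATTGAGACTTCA
In GENCODE M21 the Bcat1-203 transcript starts inside the Bcat1 upstream window and Bcat1-201 inside the downstream one. For Bckdhb, transcripts Bckdhb-201 and Bckdhb-206 start inside the upstream window and Bckdhb-205 inside the downstream one. The windows differ in composition. The Bckdhb upstream window had 65.0% G and C and 20 CG pairs, against 37.3% and 2 CG pairs in its downstream window, while all 32851 windows of the reference had medians of 52.7% and 7. For Bcat1 the order was the other way round, with 41.0% and 6 CG pairs upstream and 58.7% and 16 CG pairs downstream.

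Of the 8 genes, 6 had 1 or more such windows, 9 in all. Slc7a5 and Dbt had no entry. All 9 windows were searched on both strands for TGATGNAA, the core of the element bound by ATF4 with C/EBP proteins, for the E-box CACGTG, and for GCGCATGC, a core of the NRF1 motif. None of the 9 held a match to any of the 3, which says only that these letters are not in these windows. The shares of all windows with a match were 3.97%, 7.15% and 2.71%.

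Bcat1, the cytosolic aminotransferase, was nearly absent from whole lung and well expressed in the cell line. It stood at 0.919, 0.619 and 0.831 CPM in lung replicates 1, 2 and 3, which correspond to 23.0, 14.0 and 16.0 estimated counts, against 144, 68.8 and 68.8 CPM in cell line replicates 1, 2 and 3. The lowest cell line sample was far above the highest lung sample. The means were 0.790 ± 0.154 CPM in lung, against 94.0 ± 43.6 CPM in the cell line (SD, n = 3 each), a fitted log2 fold change, lung over cell line, of -6.88 (SE 0.46). The mean without cell line replicate 1 was 68.8 CPM, and the fold change was then -6.45.

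Bcat2, the mitochondrial aminotransferase that catalyses the same reaction, showed no such separation. It stood at 42.2, 56.7 and 37.0 CPM in lung and at 74.5, 40.1 and 41.9 CPM in the cell line. Cell line replicate 1 was the highest of all and the other 2 cell line samples lay within the range of lung. The log2 fold change was -0.20 (SE 0.32), and it was 0.13 without cell line replicate 1, both smaller than the SE.

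The aminotransferase pair therefore had a different balance in the 2 groups. To compare genes with each other, levels were divided by annotated transcript length and scaled to a common total (TPM). On that scale the ratio of Bcat1 to Bcat2 was 0.0141, 0.00686 and 0.0143 in lung, against 1.38, 1.25 and 1.21 in the cell line. Bcat1 was the higher of the 2 in each cell line sample and the lower in each lung sample. The log2 ratio averaged -6.49 ± 0.61 in lung and 0.35 ± 0.10 in the cell line (SD, n = 3 each), a difference of -6.84. In cell line replicate 1 both genes were raised, and the ratio stayed close to that of replicates 2 and 3.

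**Figure D1:**
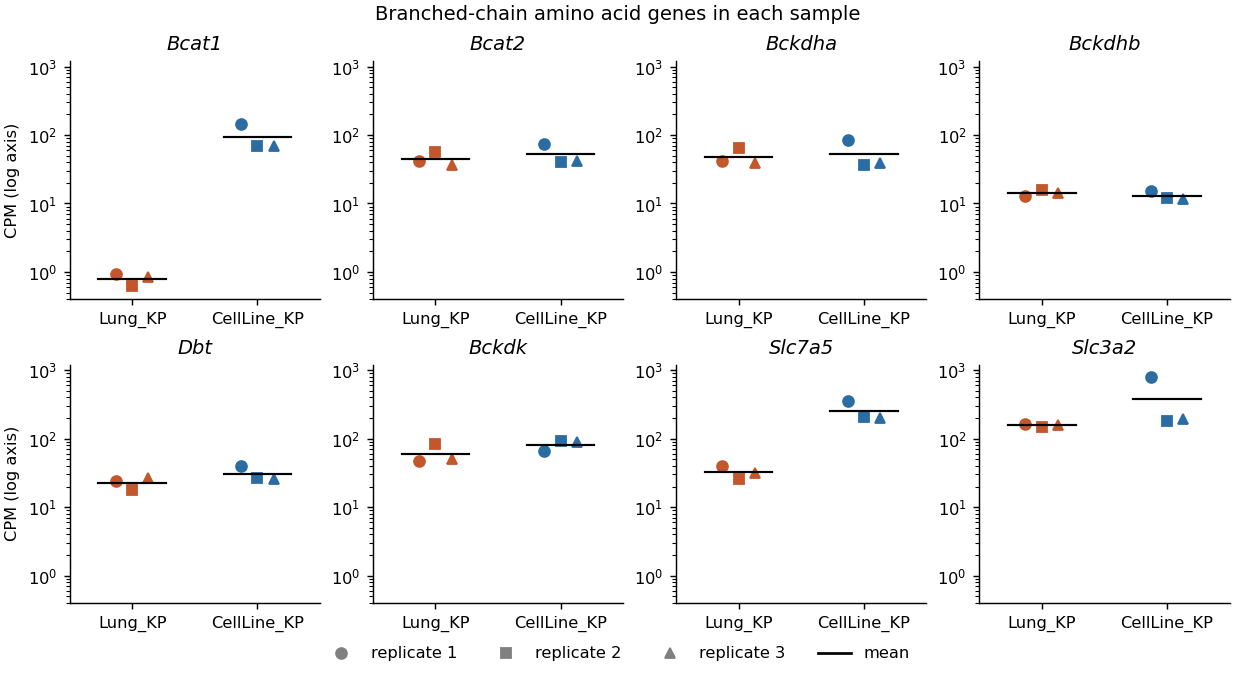
Level of each of the 8 genes in every sample, in CPM on a log axis, with Lung_KP left of CellLine_KP, marker shapes for replicates and a bar at the group mean. Bcat1 lies below 1 CPM in all 3 lung samples and at 68.8 CPM or more in the cell line, Slc7a5 is also separated, and the Slc3a2 mean of the cell line is drawn up by replicate 1 at 783 CPM.

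Nearly all Bcat1 reads were assigned to the transcript of the upstream start printed above. Bcat1-203 took 91.4%, 91.2% and 92.3% of the estimated counts of the gene in lung, where these are shares of at most 23.0 counts, and 94.3%, 95.1% and 95.7% in the cell line. Bcat1-201, from the downstream start, took 8.63%, 8.81% and 7.71% in lung and 4.52%, 3.11% and 2.43% in the cell line. In counts, the downstream start had at most 1.98 in a lung sample, under the limit of 3, and at least 31.7 in a cell line sample.

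The 2 genes of the first BCKDH component, its decarboxylase, differed little between the groups in total. Bckdha, the alpha subunit, stood at 42.2, 63.6 and 39.4 CPM in lung and at 83.6, 36.7 and 38.4 CPM in the cell line. The groups overlapped, with lung replicate 2 and cell line replicate 1 above the others of their groups. Its log2 fold change of -0.13 (SE 0.38) turned to 0.35 without cell line replicate 1. Bckdhb, the beta subunit, stood at 12.9, 15.7 and 14.3 CPM in lung and at 15.3, 11.9 and 11.7 CPM in the cell line, again with overlap. With all 6 samples it was the only one of the 8 with a positive fold change, 0.14 on the log2 scale (SE 0.25).

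Below the gene total, the Bckdhb transcripts were divided differently. Those from the upstream start held 33.6%, 31.5% and 27.8% of its estimated counts in lung, against 74.8%, 75.9% and 83.4% in the cell line. In lung replicate 2 that share was wholly Bckdhb-206 (112 counts) with Bckdhb-201 at 0, whereas in the other 5 samples it was wholly Bckdhb-201 with Bckdhb-206 at 0. The transcript from the downstream start held 63.0%, 44.3% and 72.2% in lung and 25.2%, 12.9% and 16.6% in the cell line. The shares of the groups did not overlap for either start, and cell line replicate 1 lay with replicates 2 and 3. In counts, the downstream transcript Bckdhb-205 had 203, 157 and 199 in lung and 82.6, 26.5 and 36.8 in the cell line. Bckdhb-203, a shorter transcript annotated without a protein product, took 24.3% in lung replicate 2 and 11.2% in cell line replicate 2, so the shares in these samples do not add up to the whole. These shares depend on how the authors' quantification divided reads that fit more than 1 transcript.

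**Figure D2:**
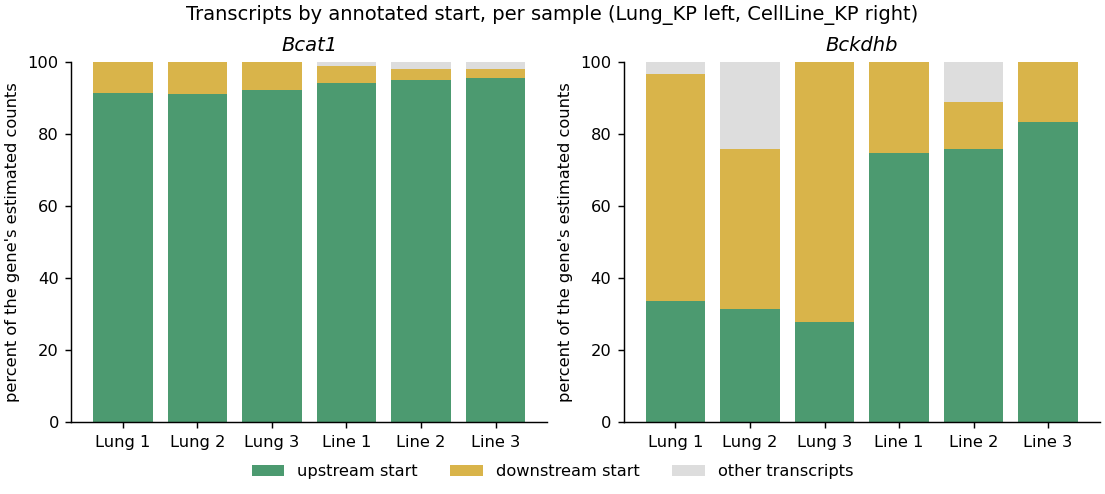
Share of the estimated counts of Bcat1 and of Bckdhb held by transcripts of the upstream start, the downstream start and other transcripts, in percent, with 1 bar per sample, lung at left and cell line at right. The upstream start holds 91.2% or more of Bcat1 in every sample, but 27.8% to 33.6% of Bckdhb in lung and 74.8% to 83.4% in the cell line.

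Dbt, the core acyltransferase of the complex, stood at 23.8, 18.0 and 26.6 CPM in lung and at 40.3, 26.3 and 26.2 CPM in the cell line. Cell line replicate 1 was again the highest, and replicates 2 and 3 lay within the upper part of the lung range. The log2 fold change was -0.44 (SE 0.28), and -0.22 without cell line replicate 1. Its transcripts are long, 3285 bases on average, and its lowest value was that of lung replicate 2, the sample that was low for long transcripts.

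Bckdk, the kinase that inhibits BCKDH, was the one gene of the 8 that was lower in cell line replicate 1 than in the other cell line samples. It stood at 47.8, 82.4 and 51.3 CPM in lung and at 65.2, 91.4 and 89.3 CPM in the cell line. Lung replicate 2 reached the cell line range, so the groups overlapped. The log2 fold change was -0.44 (SE 0.29), and -0.79 without lung replicate 2. On the TPM scale the ratio of Bckdk to Bckdha was 0.949, 1.26 and 1.10 in lung and 0.682, 2.46 and 2.27 in the cell line. The ratio of cell line replicate 1 lay below those of all lung samples, and those of replicates 2 and 3 lay above them. The mean log2 ratio was 0.13 ± 0.20 in lung and 0.64 ± 1.04 in the cell line (SD, n = 3 each), so the difference between groups was smaller than the spread within the cell line.

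Slc7a5, the catalytic light chain LAT1 of the leucine transporter, was lower in every lung sample. It stood at 40.1, 26.2 and 31.5 CPM in lung and at 351, 208 and 203 CPM in the cell line. The groups were well apart, although cell line replicate 1 exceeded its companions. The means were 32.6 ± 7.01 CPM in lung, against 254 ± 84.2 CPM in the cell line (SD, n = 3 each), with a log2 fold change of -2.96 (SE 0.33). Without cell line replicate 1 it was -2.67.

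Slc3a2, the glycoprotein heavy chain CD98hc that carries Slc7a5 and other light chains to the membrane, behaved differently. It stood at 165, 147 and 161 CPM in lung and at 783, 183 and 191 CPM in the cell line. All lung samples were below all cell line samples, but replicates 2 and 3 of the line were close to lung and replicate 1 was 4.19 times their mean. The log2 fold change of -1.29 (SE 0.56) fell in size to -0.26 without cell line replicate 1. Most of the Slc3a2 difference thus rests on 1 library.

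The light and heavy chains differed in their ratio. On the TPM scale Slc7a5 to Slc3a2 was 0.120, 0.0835 and 0.0958 in lung and 0.222, 0.567 and 0.516 in the cell line. Every cell line sample was above every lung sample, and replicate 1 of the line, with its high Slc3a2, came nearest to lung. The log2 ratio averaged -3.34 ± 0.27 in lung and -1.32 ± 0.75 in the cell line (SD, n = 3 each), a difference of -2.02. Most Slc3a2 counts belonged to Slc3a2-201, at 66.5%, 50.2% and 66.2% in lung and 78.3%, 77.3% and 73.9% in the cell line. The shorter Slc3a2-207 held 27.5%, 44.5% and 27.3% in lung and 18.1%, 17.9% and 21.8% in the cell line. Lung replicate 2 had the largest share of this shorter transcript.

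Ordered by mean TPM, the genes in lung ran from Slc3a2 (176 ± 38.4) through Bckdk (50.4 ± 9.10), Bcat2 (47.2 ± 1.77), Bckdha (45.6 ± 2.34), Bckdhb (20.9 ± 1.39), Slc7a5 (17.9 ± 6.43) and Dbt (13.2 ± 4.69) to Bcat1 (0.554 ± 0.197; SD, n = 3 throughout). Neighbours whose samples overlapped were Bckdk with Bcat2, Bcat2 with Bckdha, Bckdhb with Slc7a5, and Slc7a5 with Dbt. In the cell line the order was Slc3a2 (399 ± 357), Slc7a5 (129 ± 43.5), Bckdk (73.1 ± 16.7), Bcat1 (68.1 ± 30.6), Bcat2 (52.5 ± 19.6), Bckdha (49.7 ± 25.4), Dbt (17.6 ± 5.23) and Bckdhb (16.7 ± 2.39). There the samples overlapped for Bckdk with Bcat1, Bcat1 with Bcat2, Bcat2 with Bckdha, and Dbt with Bckdhb. Slc7a5 was second of the 8 in the cell line and sixth in lung, whereas Bcat1 was last in lung and followed Bckdk in the cell line. Slc3a2 stood first in both.

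Over the 8 genes, 7 had negative and 1 had positive fold changes, and the median log2 fold change was -0.44, against 0.08 over all 15212 genes tested. Without cell line replicate 1, Bcat2 and Bckdha were positive too (0.13 and 0.35). In 3 of the 8 the samples of the groups did not overlap (Bcat1, Slc7a5 and Slc3a2), beside 62.2% of all genes tested. Nothing is read from these counts or from the median, because the genes were chosen with this contrast known. For 5 of the 8 the log2 fold change was below 0.5 in size.

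**Figure D3:**
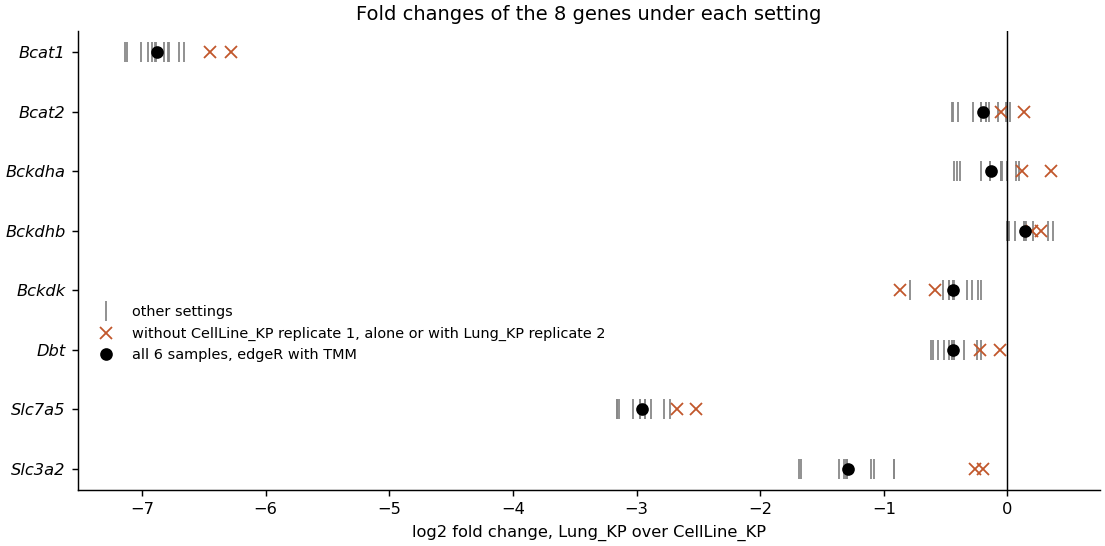
Log2 fold change, lung over cell line, of each of the 8 genes with all 6 samples (filled circles), without cell line replicate 1 alone or together with lung replicate 2 (crosses), and under the other settings (ticks). Bcat1 stays between -7.14 and -6.28 and Slc7a5 between -3.16 and -2.52, whereas Slc3a2 moves from -1.29 to -0.26 and -0.20 and Bcat2 and Bckdha lie on either side of 0.

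The genes that work with BCKDH went both ways, and of 4 tested, 1 rose, 1 fell and 2 were left without a call, beside 31.3% of all 15212 genes higher, 17.5% lower and 48.8% called in either direction. Ppm1k, the phosphatase that reactivates the complex, averaged 19.7 ± 7.14 CPM in lung, against 6.73 ± 2.15 CPM in the cell line (SD, n = 3 each), and it rose by 1.55 on the log2 scale (SE 0.38, edgeR adjusted p = 0.0102). Dld, the dihydrolipoamide dehydrogenase subunit shared with other keto acid dehydrogenases, fell, at 81.8 ± 8.60 CPM in lung, against 155 ± 38.8 CPM in the cell line (-0.92 on the log2 scale, adjusted p by edgeR = 0.0199), and its call was lost without lung replicate 1 or 3 (edgeR adjusted p = 0.052 and 0.0625). Slc25a44, a mitochondrial carrier of branched-chain amino acids, and Klf15, a transcription factor that controls this pathway in muscle, did not pass the test (edgeR adjusted p = 0.165 and 0.0825). Klf15 stood at 9.11, 7.21 and 9.14 CPM in lung and at 4.15, 0.115 and 0.211 CPM in the cell line. Without cell line replicate 1 it was called higher in lung. The lists here and in the next paragraphs were fixed by pathway, with earlier results of these data known, and 5 of their genes stand in 2 lists, namely Asns, Psat1, Gpt2, Sesn2 and Slc7a11, each of which is also among the ATF4 targets.

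Past BCKDH, the share of oxidation enzymes that rose in lung was close to that of all genes. Of 25 genes tested, 8 rose, beside 31.3% of all genes, 0 fell, beside 17.5%, and 17 were left without a call. The count of 0 that fell by edgeR was also 0 at an unadjusted p under 0.05, by DESeq2 and by limma-voom, and it was 2 without lung replicate 2, where 24.3% of all genes were lower. The median log2 fold change was 0.32, against 0.08 over all genes. Pccb, a subunit of propionyl-CoA carboxylase in the valine and isoleucine branch, rose most of those at 5 CPM or more, at 44.5, 45.3 and 44.7 CPM in lung against 15.1, 13.2 and 12.7 CPM in the cell line, so that its log2 fold change was 1.71 (adjusted p = 4.21e-04 by edgeR). Ivd, the first dehydrogenase of the leucine branch, stood at 70.3 ± 13.5 CPM in lung, against 85.4 ± 8.64 CPM in the cell line (edgeR adjusted p = 0.371), and was chosen after its values were seen. Of the 25, 4 were called higher when lung replicate 1 was left out, 2 when cell line replicate 2 was and 1 when cell line replicate 3 was, beside 27.6%, 27.1% and 27.2% of all genes. With cell line replicate 1 and lung replicate 2 both left out, 15 were called higher and 3 lower, beside 43.2% of all genes higher and 35.2% lower.

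The enzymes that pass nitrogen on from glutamate were mostly lower in lung. Of 10 tested, 2 rose, beside 31.3% of all genes, 6 fell, beside 17.5%, and 2 were left without a call. The median log2 fold change was -1.69. Among those that fell, Asns, Psat1 and Gpt2 are counted again in the ATF4 list below. Gpt2, the mitochondrial alanine aminotransferase, fell most of those at 5 CPM or more, with a mean of 12.6 ± 2.24 CPM in lung against 179, 37.7 and 41.4 CPM in the 3 cell line samples. Its log2 fold change was -2.78 (SE 0.62, edgeR adjusted p = 0.00685), and -1.67 without cell line replicate 1. Asns, asparagine synthetase, stood at 33.0, 41.9 and 31.2 CPM in lung against 363, 141 and 148 CPM in the cell line. Its change was -2.62 on the log2 scale (adjusted p by edgeR = 0.00127), and -2.04 without cell line replicate 1. In contrast Gpt, the cytosolic alanine aminotransferase, rose, at 21.3 ± 0.947 CPM in lung, against 4.88 ± 0.685 CPM in the cell line (2.12 on the log2 scale, adjusted p by edgeR = 2.78e-04). Glul, glutamine synthetase, stood at 252 ± 28.4 CPM in lung, against 156 ± 3.00 CPM in the cell line (0.70 on the log2 scale, adjusted p by edgeR = 0.0355), a call lost without any 1 of lung replicates 1 and 3 or cell line replicates 2 and 3 (edgeR adjusted p from 0.083 to 0.18).

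Other amino acid transporters split by gene. Of 18 tested, 10 rose, beside 31.3% of all genes, 5 fell, beside 17.5%, and 3 were left without a call. Of the 10 that rose, 7 averaged under 1 CPM in the cell line and passed the filter on low counts through their lung level, so nothing is read from that count. Among the 11 with 10 or more counts in all 6 samples, 3 rose (Slc7a7, Slc43a2 and Slc7a2, named after their values were seen), beside 21.3% of all such genes. Among those that rose, Slc6a14, a broad transporter of neutral and cationic amino acids, stood at 29.4, 11.8 and 40.6 CPM in lung and at 0 in all cell line samples, which makes it at least 524-fold higher against 3 counts over the group. Slc7a10, another light chain that pairs with Slc3a2, stood at 14.4, 12.2 and 15.6 CPM in lung and at 0 in all cell line samples, which makes it at least 270-fold higher. Slc7a8, the light chain LAT2, stood at 10.4 ± 3.57 CPM in lung, against 0.664 ± 0.195 CPM in the cell line. It is one of the 7 that averaged under 1 CPM there, whereas Slc7a5, the light chain LAT1, was lower in lung. Slc7a8 was named after its values were seen.

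Among the transporters that fell, Slc7a11, the cystine light chain that pairs with Slc3a2, stood at 9.03, 5.75 and 9.35 CPM in lung and at 451, 37.0 and 36.4 CPM in the cell line. Its log2 fold change of -4.44 (SE 1.05, edgeR adjusted p = 0.00855) was -2.20 without cell line replicate 1. Slc7a1, a cationic amino acid transporter, stood at 38.2, 16.3 and 44.1 CPM in lung, against 490, 178 and 189 CPM in the cell line. It fell by 3.12 on the log2 scale (adjusted p by edgeR = 0.00193), and its log2 fold change was -2.49 without cell line replicate 1. In both, replicate 1 of the line was the highest, as for Slc3a2.

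Most genes of leucine sensing and mTORC1 were not called. Of 23 tested, 1 rose, 2 fell and 20 were left without a call, a called share below the 48.8% of all genes, with a median log2 fold change of -0.13. Sesn1, a sestrin that restrains mTORC1, rose, at 35.3 ± 6.85 CPM in lung, against 15.4 ± 2.10 CPM in the cell line (SE of the log2 fold change 0.26, edgeR adjusted p = 0.00552). Rptor, the scaffold of the complex, was at 42.0, 20.1 and 44.7 CPM in lung, against 63.3, 72.7 and 74.0 CPM in the cell line (edgeR adjusted p = 0.0387), and Depdc5, of the complex that holds mTORC1 off, at 16.5 ± 4.81 CPM in lung, against 31.9 ± 1.88 CPM in the cell line (edgeR adjusted p = 0.0244). Rptor and Depdc5 lost their call without lung replicate 1, cell line replicate 2 or cell line replicate 3 (edgeR adjusted p from 0.0526 to 0.0912), and Rptor lost it also without cell line replicate 1 (edgeR adjusted p = 0.0559). When both samples that stand apart were left out, 6 of the 23 were higher and 6 lower, beside 78.4% of all genes called in either direction.

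The tRNA synthetases that charge the 3 branched-chain amino acids were mostly lower in lung. Of 6 tested, 4 fell, beside 17.5% of all genes, 0 rose, beside 31.3%, and 2 were left without a call. The count of 0 that rose by edgeR was also 0 at an unadjusted p under 0.05, by DESeq2 and by limma-voom. Iars1, the cytosolic isoleucine enzyme, stood at 64.9, 34.8 and 68.1 CPM in lung against 469, 295 and 303 CPM in the cell line, and fell by 2.67 on the log2 scale (adjusted p by edgeR = 5.40e-04). Lars1, the cytosolic leucine enzyme, which also takes part in leucine sensing, stood at 70.8, 47.4 and 69.0 CPM in lung, against 287, 202 and 203 CPM in the cell line (-1.88 on the log2 scale, adjusted p by edgeR = 9.29e-04).

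ATF4, a transcription factor translated when amino acids run short, is known to induce Slc7a5, Slc3a2 and many amino acid genes, and 20 genes, Atf4 itself and known targets without the 8, were examined for it. Of these 12 fell in lung, beside 17.5% of all genes, 0 rose, beside 31.3%, and 8 were left without a call. The median log2 fold change was -2.54, a value that includes cell line replicate 1, in which most of this list was raised. Without that replicate 12 were still called lower. The 8 without a call were Atf4, Atf5, Ddit3, Sesn2, Cebpg, Vldlr, Nupr1 and Ddit4. The lung means of Atf5, Ddit3, Sesn2, Cebpg, Nupr1 and Ddit4 lay above cell line replicates 2 and 3, and those of Atf4 and Vldlr below. The count of 0 that rose by edgeR was also 0 at an unadjusted p under 0.05, by DESeq2 and by limma-voom. It was 1 without cell line replicate 1. Without both that replicate and lung replicate 2 it was 4, where 43.2% of all genes were higher. Aldh1l2, a mitochondrial folate enzyme, stood at 2.80, 1.37 and 3.69 CPM in lung against 411, 30.6 and 29.4 CPM in the cell line. It fell by 5.91 on the log2 scale (adjusted p by edgeR = 0.00414), and its log2 fold change was -3.53 without cell line replicate 1. Chac1, which degrades glutathione, stood at 2.04, 2.26 and 2.55 CPM in lung against 127, 18.4 and 17.2 CPM in the cell line, and fell by 4.58 on the log2 scale (adjusted p by edgeR = 0.00267), with a log2 fold change of -2.98 without that replicate. DESeq2 called 8 of the 20 lower, beside 21.1% of all genes, but it gave no adjusted p for some of them, Aldh1l2 and Slc7a11 included. Of the genes of all 7 lists it gave an adjusted p for 95 of 101, and 0 of these lost their edgeR call. The smaller count thus comes from genes without a DESeq2 adjusted p.

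**Figure D4:**
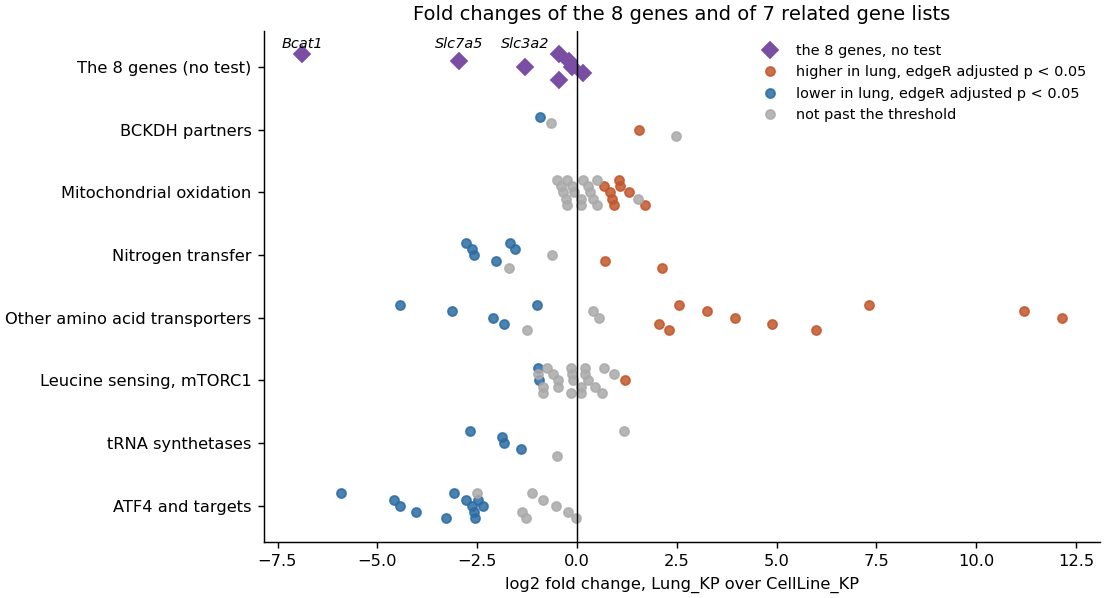
Fitted log2 fold change, lung over cell line, of the 8 genes (diamonds, no test) and of the genes of 7 related lists (circles), coloured by the edgeR call. ATF4 targets and tRNA synthetases lie mostly left of 0, mitochondrial oxidation genes close to it, and other transporters on both sides, where the values of genes at 0 in the cell line are fitted and not bounds.

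The ATF4 list also set cell line replicate 1 apart from the other cell line samples. Of the 20 genes, 17 were more than 2-fold higher in replicate 1 than the mean of replicates 2 and 3, with a median log2 ratio of 1.99, whereas 6.21% of all genes tested were, with a median of 0.01. Ddit3, which encodes the stress factor CHOP, had 250 CPM there against 4.32 and 5.06 CPM in the other pair, and Trib3, an ATF4-induced pseudokinase, had 310 against 15.1 and 15.8 CPM. Atf4 itself stood at 840 against 247 and 249 CPM. Atf4, Ddit3 and Trib3 were named here after their values were seen.

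Among the 8 genes, 3 were more than 2-fold higher in cell line replicate 1, with log2 ratios to the mean of replicates 2 and 3 of 2.07 for Slc3a2, 1.16 for Bckdha and 1.07 for Bcat1. Bcat2 (0.86), Slc7a5 (0.77), Dbt (0.62) and Bckdhb (0.38) were higher by less, and Bckdk was lower (-0.47). The genes of the pathway that did not share the rise of Slc3a2 to this extent included its own light chain Slc7a5. These are values of 1 library against 2 others and carry no test, and the part of this library's state in the differences from lung was not tested.

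**Figure D5:**
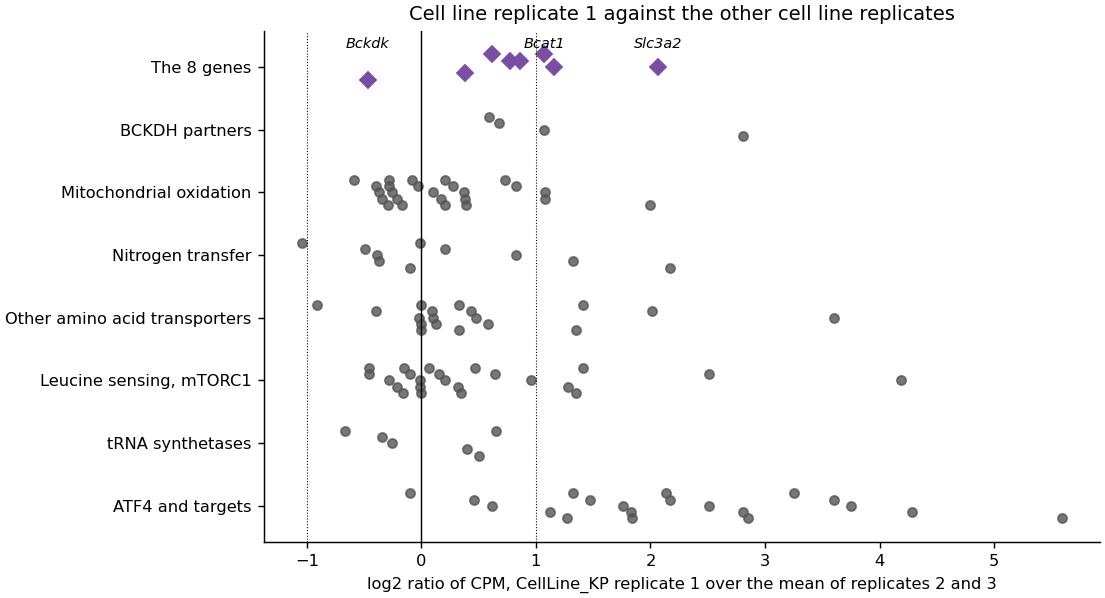
Log2 ratio of CPM in cell line replicate 1 over the mean of replicates 2 and 3, for the 8 genes (diamonds) and the genes of 7 related lists (circles), with dotted lines at 2-fold either way. ATF4 and its targets reach 5.59 with a median of 1.99, Slc3a2 lies at 2.07, and Bckdk is the one gene of the 8 left of 0.

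The genes whose profile over the 6 samples was most like that of Bcat1 were found by the root mean square difference of centred log2(CPM + 0.5), among 11052 other genes with a mean of 10 CPM or more in the higher group. Genes with Gm, Rik, -ps or ENSMUS names were left out of this and the later rankings by profile. The most alike were Dynap (0.62), Hmga2 (0.77), Ptgs2 (0.79), Grem1 (0.82) and Add2 (0.82), all high in the line and low in lung. The likeness lay in that contrast and not within the line. Bcat1 was highest in cell line replicate 1, whereas Dynap, Hmga2, Ptgs2 and Add2 were lowest there and Grem1 was level. Hmga2, for example, stood at 631, 1001 and 1051 CPM in cell line replicates 1, 2 and 3. Dynap stood at 0.599, 0.221 and 0.416 CPM in lung and at 32.2, 50.1 and 48.8 CPM in the cell line. In that order Slc7a5 was the closest of the other 7 genes, at rank 62 with a difference of 1.60. Bckdhb was the farthest, at rank 6652.

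For Slc7a5 the closest profiles were nearer, namely Fam110c (0.15), Ank (0.17), Ogdhl (0.19), Megf10 (0.21) and Mthfd1l (0.21). Ank, a membrane protein of pyrophosphate export, stood at 43.9, 33.8 and 35.9 CPM in lung and at 326, 255 and 267 CPM in the cell line. For Slc7a5, its partner Slc3a2 came at rank 2096 of the same 11052 genes, with a difference of 1.09. It was the closest of the other 7 pathway genes, followed by Dbt at rank 3627. Bcat1 was the farthest of the 7 from Slc7a5, at rank 6840 with the same difference of 1.60. The rank of 62 given above for this pair thus does not mean that the profiles were close. The 6 samples share a library protocol but differ in tissue.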

How the data were processed

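The authors deposited estimated counts per transcript, not scaled, for 6 samples. The submitters' processing notes name the tools Salmon 1.4.0, FastQC 0.11.9 and DESeq2 1.32.0 and the build GRCm39, without their roles. Of 76776 transcripts, 76521 matched GENCODE M21, a release on another build used for names, lengths and starts, and were summed to 20687 symbols. Unmatched transcripts held 0.11% to 0.42% of the counts. Sums were rounded and tested with the quasi-likelihood test of edgeR 4.0.16 in R 4.3.3 (TMM scaling, filter by group, group only, Benjamini-Hochberg over 15212 genes, threshold 0.05). Levels are CPM on TMM-scaled libraries, fold changes lung over cell line, SE from fold change and F statistic, SD over 3 samples. P-values for the cell line may measure technical spread only. TPM used annotated lengths.

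The 8 genes, the 7 lists and the tests were chosen with earlier results of these data known. From each list the 2 genes called higher and the 2 called lower with the largest fold change at 5 CPM or more were named, and for Bcat1 and Slc7a5 the 5 most alike profiles. A gene that this rule names in the oxidation list is not reported here. Other settings were scaling by DESeq2 size factors or by library size, other filters, the DESeq2 1.42.0 Wald test, limma-voom 3.58.1, a block for replicate number, at least 2-fold change, and samples left out singly or as the pair that stands apart.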

Additional observations from a re-analysis of the deposited data

How the results depend on the processing

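Bcat1 and Slc7a5 kept their direction under every alternative run, with ranges over single left-out samples of -7.14 to -6.45 and -3.16 to -2.67. Over the same samples left out, Bcat2 ran from -0.45 to 0.13, Bckdha from -0.43 to 0.35, Bckdhb from 0.00 to 0.27, Bckdk from -0.79 to -0.29, Dbt from -0.62 to -0.22 and Slc3a2 from -1.69 to -0.26. Without cell line replicate 1 and lung replicate 2 together the log2 fold changes were -6.28 for Bcat1, 0.12 for Bckdha, -0.87 for Bckdk, -0.06 for Dbt, -2.52 for Slc7a5 and -0.20 for Slc3a2. Scaling by library size alone shifted the median of all genes by 0.23 and gave 0.02 for Bcat2, 0.09 for Bckdha and 0.37 for Bckdhb, values that hold this common shift. It made 75.1% of calls higher in lung, against 64.1% with TMM. With 10 or more counts in all 6 samples Bckdha was at 0.07 and Bckdhb at 0.33, with a median shift of 0.19. The cause of these shifts was not tested.

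Among list counts, the BCKDH partners had 2 higher by DESeq2, by limma-voom and with the replicate block, and 0 lower with library size alone, with 10 counts in all samples and at a 2-fold minimum, with 1 to 2 higher and 0 to 1 lower over single left-out samples. Oxidation genes called higher numbered 1 to 7 and lower 0 to 2 over left-out samples, 4 higher at 2-fold, and 15 higher and 3 lower without both samples. Nitrogen genes called higher numbered 1 with no filter, with the replicate block and at 2-fold, and 1 to 2 over left-out samples. Transporters called higher numbered 3 with 10 counts in all samples, which removes genes near 0 in the line. Leucine sensing genes called higher numbered 2 with library size alone and with 10 counts in all samples, and 1 to 2 over left-out samples. Those called lower numbered 0 with library size alone, with 10 counts and at 2-fold, 4 by DESeq2 and 0 to 4 over left-out samples. Without both samples 6 were higher and 6 lower. ATF4 genes called higher numbered 0 to 1 over left-out samples and 4 without both. Over all genes, 2555 were higher and 1701 lower with 10 counts in all samples, 1728 lower with library size alone, and 6657 higher and 5425 lower of 15404 without both samples, against 4758 and 2664, and between 1820 and 3773 were lower over left-out samples.

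Same-numbered samples did not deviate together (correlations of -0.05, 0.09 and -0.10 across genes), so the numbers were not read as pairs. With the replicate block, the log2 fold changes were -6.82 for Bcat1, -2.93 for Slc7a5 and -0.92 for Slc3a2, and of 101 list genes 5 lost and 6 gained a call. The level of Bcat1 in lung rests on 14.0 to 23.0 counts per sample, the fewest of the 8 genes.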

Other observations

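The profile of Slc3a2 over the 6 samples was closest to that of Calr, the endoplasmic reticulum chaperone calreticulin, with a root mean square log2 difference of 0.07 among 11052 genes, and these genes were looked up after the values had been seen. Calr stood at 656, 587 and 684 CPM in lung and at 2986, 810 and 824 CPM in the cell line, so that it too was raised in cell line replicate 1 and close to lung in replicates 2 and 3. Osbpl2, Gpr137b, Scpep1 and Fbxl2 came next, at 0.13 to 0.16. Of the other 7 pathway genes, Dbt was the closest to Slc3a2, at rank 519, and Slc7a5 came at rank 7263.

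Lars2, the mitochondrial leucine tRNA synthetase, stood at 491, 6605 and 207 CPM in lung and at 1276, 970 and 964 CPM in the cell line. The value of lung replicate 2 lay far above all other samples, while Iars2, the mitochondrial isoleucine enzyme, stood at 66.5, 48.2 and 73.0 CPM in lung and at 146, 171 and 177 CPM in the cell line. Among other light chains that pair with Slc3a2, Slc7a7 rose, at 24.5 ± 2.35 CPM in lung, against 5.89 ± 0.979 CPM in the cell line (edgeR adjusted p = 3.52e-04), and Slc7a6 fell, at 57.9, 36.0 and 46.6 CPM in lung, against 104, 196 and 196 CPM in the cell line (edgeR adjusted p = 0.00253). In Slc7a6 cell line replicate 1 was the lowest of the line, the reverse of Slc3a2. Aldh6a1, a dehydrogenase of valine breakdown, stood at 52.8, 29.1 and 59.3 CPM in lung and at 32.8, 7.43 and 8.22 CPM in the cell line, where replicate 1 again stood above the others. Lars2, Iars2, Slc7a7, Slc7a6 and Aldh6a1 were named here after their values were seen.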
